A study of Mus with 8 samples.

Results

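Lin-Sca1+Kit+ cells (LSK) of Ifnar+/- mice 14 days old (P14) were compared with LSK cells of Ifnar+/- newborns (P0). The comparison rests on 1 library at each age. Barcodes with at least 7500 gene UMI (unique molecular identifiers, 1 per captured RNA molecule) and at most 10% of UMI in mitochondrially coded genes were kept as cells. This left 5122 cells at P0 and 4615 at P14, 9737 of the 35549 cells that the same rule keeps over the 8 libraries of the series. RNA and 10 antibody tags were read in each cell by CITE-seq, from 10x Genomics 3' libraries, in a series on interferon and blood formation after birth. Both libraries carry the same label Ifnar+/-, written without a number, and the same sorted fraction. The labels name no organ, strain, sex, treatment or number of mice, and do not say whether mice were pooled or which Ifnar allele was used. Age and any difference of organ therefore cannot be told apart, nor can age and the mice that happened to be used. With 1 library a side no difference was tested and no p-value is given. Intervals in brackets are 95% and cover counting error only. The same age step in LSK cells of Ifnar-/- mice (7858 cells) and in Lin-Kit+ cells (LK) of Ifnar+/- mice (8302 cells), also 1 library at each age, is given beside some results.

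LSK cells are a fraction in which blood stem cells and multipotent progenitors are enriched. Around birth these cells move from the liver to the bone marrow. In the weeks after birth they pass from a fetal to an adult programme. In that programme they divide less often and lymphoid-primed progenitors express the polymerase Dntt. Type I interferons bind a receptor made of Ifnar1 and Ifnar2, which acts through the kinases Jak1 and Tyk2 to switch on a large set of antiviral genes.

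Ifnar1 (ENSMUSG00000022967, GRCm38 chr16:91485032-91510523) stood at 31.2 UMI per 1000000 gene UMI of the library (CPM) at P0 and 36.9 at P14, and Ifnar2 at 94.6 and 98.7. LSK libraries labelled Ifnar-/- also held Ifnar1 RNA, 29.4 CPM at P0 and 33.4 at P14, so its level does not check the genotype. Kit, the stem cell factor receptor used in the sort, had 157 CPM at P0 and 227 at P14. Ly6a, which encodes Sca1 and is itself known to respond to interferon, had 75.9 and 47.0. Median gene UMI per cell was 32316.5 at P0 and 25597 at P14, and the summed depth was 177371801 and 130788076 gene UMI. By male and female transcripts, 35.9% of sexed cells were male at P0 and 63.8% at P14, so values within each sex are given for some results. The libraries shared 3 barcodes. Transcripts of both sexes were present in 7.99% and 9.71% of cells. No cell was removed as a doublet, since the threshold that Scrublet set itself marked 0 cells at P0 and 1 at P14.

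Of the 14015 genes with at least 50 UMI in 1 library, 515 (3.67%) rose at least 2-fold from P0 to P14 and 586 (4.18%) fell at least 2-fold. At 1.5-fold, 1516 (10.8%) were higher and 1095 (7.81%) lower. The median log2 ratio of all genes, P14 over P0, was 0.07. Counts below are of genes with that many UMI, so a gene seen in only 1 library could enter only by differing, and list counts are descriptions. A list count near the shares over all genes says nothing about the list. The largest increase belonged to Dntt, which adds bases at joints of antigen receptor genes, and large falls were those of Igf2bp1, the metallothionein Mt2, Id3 and the imprinted RNA H19. Among groups of genes, lists of interferon response, fetal and imprinted genes had medians of -1.30, -0.75 and -1.36. Other lists lay further from 0 than the fetal list, among them hepatocyte (-5.83), mature neutrophil (5.08), B cell (-1.62) and globin (-1.27) genes. The mature neutrophil median rested on 3 genes and was -1.24 without those of which 10 cells held over 50% of UMI. With 5 CPM added to both levels the hepatocyte median was -0.12. The summed level of the hepatocyte list was 49.6 CPM at P0 and 51.2 at P14. Of the 1101 genes at least 2-fold apart (7.86%), 69 had over 50% of their UMI in 10 cells, and a ratio of such a gene rests on those cells.

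**Figure D1:**
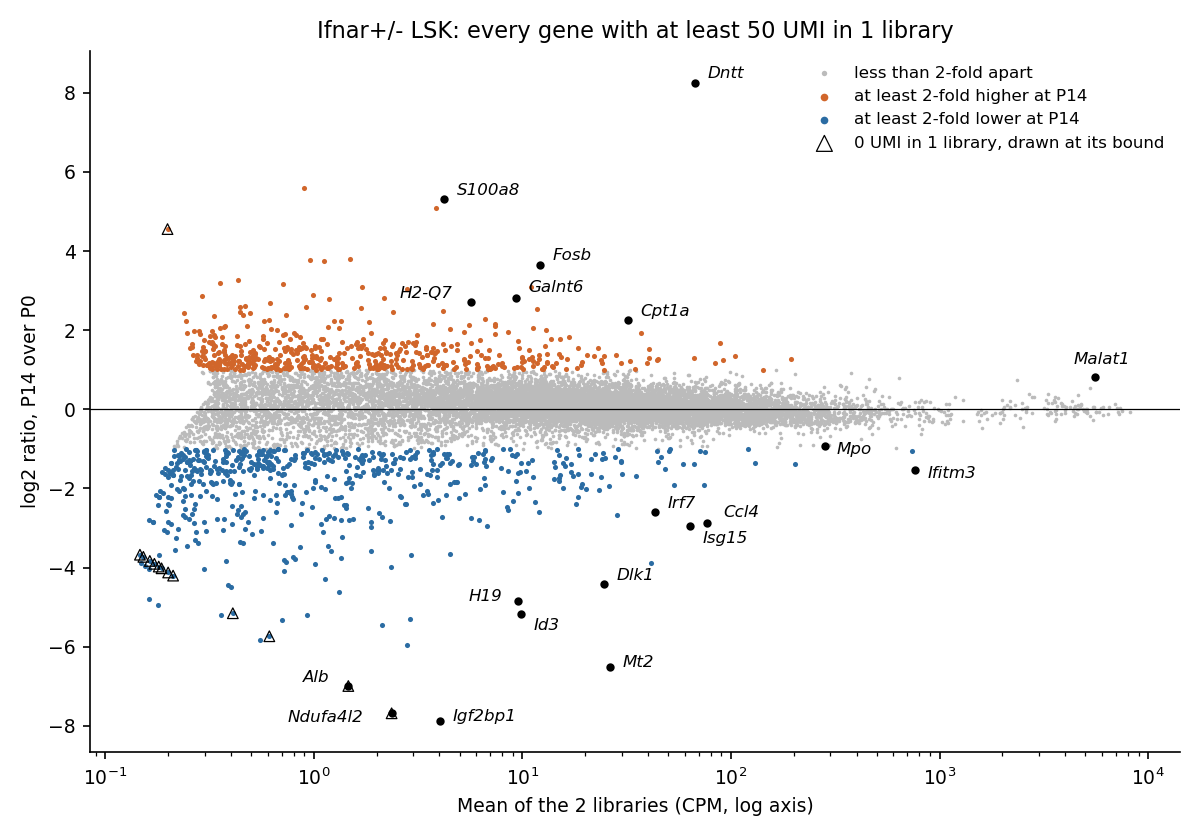
Log2 ratio of P14 over P0 (vertical axis) against the mean CPM of the 2 libraries (log axis) for the 14015 genes with at least 50 UMI in 1 library of Ifnar+/- LSK cells. Orange and blue points are genes at least 2-fold higher (515) and lower (586) at P14, triangles are genes with 0 UMI in 1 library drawn at the bound that 3 counts give, and Dntt stands alone at 8.26.

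Interferon-stimulated genes were lower at P14. Of 42 listed genes 40 were among the annotated genes, and all 40 had enough UMI. Of these 23 fell at least 2-fold, 0 rose, and 36 had a log2 ratio below 0. The list's median log2 ratio was -1.30, beside 0.07 for all genes, and -0.68 with 5 CPM added to both levels, which shrinks ratios of low genes. Isg15, a ubiquitin-like modifier and among the most responsive targets of interferon, had 113 CPM at P0 and 14.5 at P14, a fall of 7.75-fold (log2 -2.95 [-3.02, -2.89]). It was detected in 46.6% of P0 cells and 9.17% of P14 cells when each cell was thinned to 7500 UMI, and in 80.8% and 21.9% unthinned. Isg15 stood at 93.6 CPM in free RNA (barcodes with at most 100 UMI) at P0 and 10.8 at P14, and the part of free RNA in these shares was not tested. The antiviral gene Rsad2 fell 6.39-fold and went from 49.4 to 7.72 CPM. Irf7, the transcription factor that amplifies interferon production, went from 74.2 to 12.3 CPM, 6.03-fold lower. Ifitm3, which blocks virus entry at membranes, fell 2.90-fold from 1138 to 392 CPM. Bst2, which tethers budding virus, fell 2.61-fold from 292 to 112 CPM, and Ifi27 fell 2.55-fold from 187 to 73.2 CPM.

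Other members, chosen after their values were seen, fell as well. The sensors of double-stranded RNA Oas2 (log2 -2.46), Oas3 (-1.90) and Oas1a (-1.82) and the related Oasl1 (-2.35) fell, although these close relatives may share reads. So did the interferon-induced Ifit1 (32.3 to 8.04 CPM), the deubiquitinase Usp18 (15.5 to 3.61 CPM) and Rtp4 (117 to 31.0 CPM). Some members stood nearly level. Ly6e stood at 356 and 337 CPM, Gbp3 at 11.3 and 12.3, and Ifit2 at 11.4 and 13.02. Gbp2, a guanylate-binding protein that interferon gamma also induces, had the highest ratio of the list, 11.8 to 17.4 CPM (log2 0.56).

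Most cells shared in the lower level. Of 7500 UMI, the median P0 cell had 26 from the interferon list (5th to 95th percentile 11.05 to 51) and the median P14 cell had 12 (5 to 27). Unthinned medians were 110 and 41. At P14, 94.0% of cells lay under the P0 median, and 45.4% lay under the P0 5th percentile. Conversely 45.2% of P0 cells lay over the P14 95th percentile. The lower level was also seen within classes of cell. In a stem gate (at least 2 of Procr, Mecom, Hlf and Fgd5 and no Flt3 after thinning) the median cell had 30 at P0 and 13 at P14. In a Flt3 gate (Flt3 and none of those 4 genes) it had 24 and 10. Median ratios of the list were -1.17 in male cells and -1.44 in female cells.

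The age step in the 2 other pairs of libraries gave these values. In LK Ifnar+/- cells the interferon list had a median log2 ratio of -1.002 and its summed level went from 1601 to 1051 CPM. In LSK Ifnar-/- cells the median was 0.31 and the sum went from 1254 to 1155 CPM. In LSK Ifnar+/- cells the sum went from 3486 to 1681 CPM. Isg15 had log2 ratios of -2.95, -2.49 and -0.19 in LSK Ifnar+/-, LK Ifnar+/- and LSK Ifnar-/- cells, and Irf7 had -2.59, -2.40 and 0.31. Each pair is 1 library a side, so the difference between pairs was not tested.

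**Figure D2:**
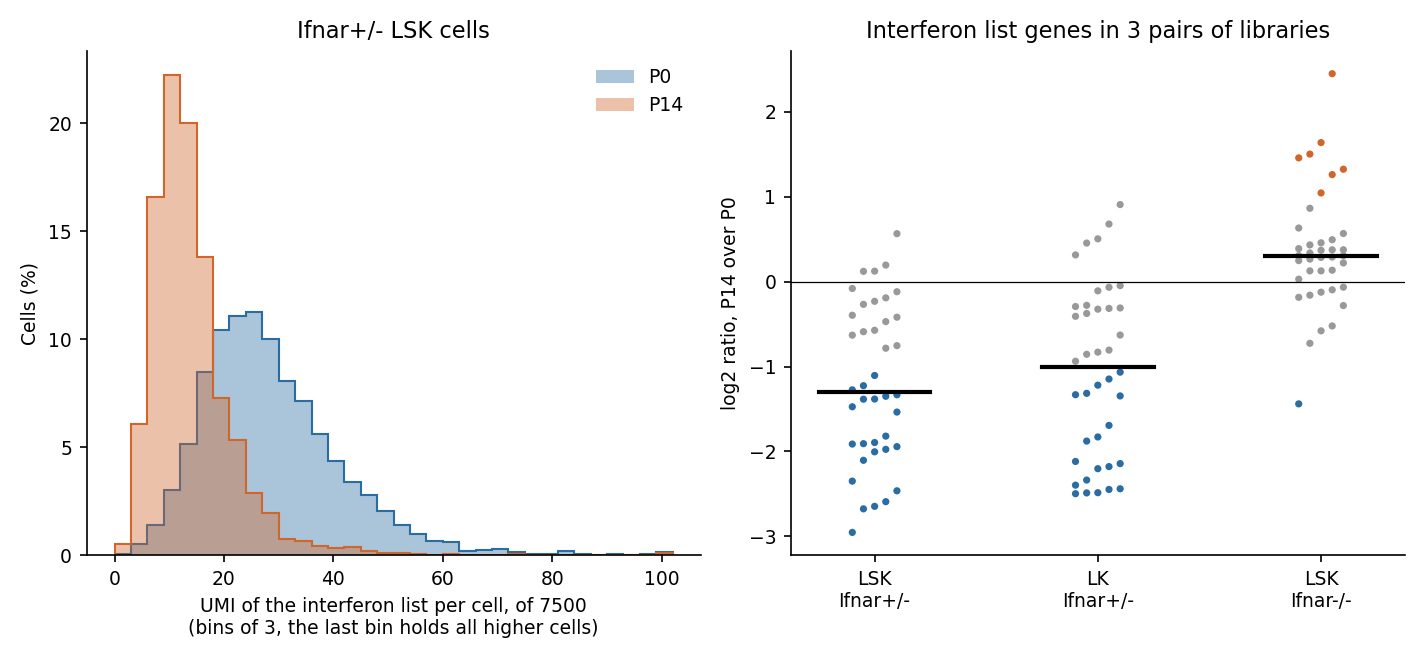
Left, share of cells (percent) by the number of interferon list UMI among 7500 UMI per cell in the P0 and P14 libraries of Ifnar+/- LSK cells, with medians of 26 and 12. Right, log2 ratio of P14 over P0 of each interferon list gene in 3 pairs of libraries, 1 point a gene, with bars at the medians of -1.30, -1.002 and 0.31 and orange or blue for genes at least 2-fold higher or lower.

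Of 18 genes of interferon receptors and their signalling, 1 fell at least 2-fold and 0 rose, near the 7.86% of all genes at least 2-fold apart, with a median of 0.01. Jak1, a kinase bound to Ifnar2, had 124 CPM at P0 and 139 at P14, and Irf3, a sensor-driven factor upstream of interferon, had 35.5 and 46.8. The gene that fell was Socs3, a feedback inhibitor of cytokine receptors (4.25 to 2.003 CPM). Socs1, the inhibitor most tied to interferon, had 12.2 and 6.49 CPM (log2 -0.91), and the interferon gamma receptor chain Ifngr1 had 109.8 and 72.6. In the other direction, Irf1, which interferon gamma and inflammatory signals induce, had 23.1 and 40.6 CPM (log2 0.82), with 0.76 in LSK Ifnar-/- and 1.33 in LK Ifnar+/- cells.

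MHC class I genes, many of which also respond to interferon, did not follow the antiviral genes. Of 18 genes, 2 rose, 0 fell, and the median was 0.14. H2-K1, a classical class I heavy chain, stood at 403 CPM at P0 and 576 at P14, H2-D1 at 376 and 481, and their partner chain B2m at 822 and 772. The 2 that rose were neighbours on chromosome 17, H2-Q7 (GRCm38 chr17:35439140-35443773; 1.51 to 9.79 CPM, log2 2.70) and H2-Q6 (chr17:35424850-35430055; 0.355 to 3.05 CPM, log2 3.09). They are near-identical copies, so their reads may be split between them. H2-Q7 was seen in 1.17% of thinned P0 cells and 7.22% of P14 cells (3.53% and 16.5% unthinned), with 2.92% and 13.1% in the stem gate and 0.155% and 2.15% in the Flt3 gate. In free RNA it had 1.27 and 7.39 CPM, and the part of free RNA was not tested. Its log2 ratio was 2.47 in LSK Ifnar-/- and 3.26 in LK Ifnar+/- cells.

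MHC class II genes differed by class of cell. Over all cells 3 of 7 fell and 0 rose (median log2 ratio -0.82). The median was 0.93 within the stem gate, where 2 rose and 0 fell, and -2.30 within the Flt3 gate, where 5 fell. Without the genes of which 10 cells held over 50% of UMI it was 0.39, over 5 genes. Over all cells the peptide-presenting chains H2-Eb1 (11.9 to 1.53 CPM) and H2-Aa (20.7 to 3.40 CPM) and the invariant chain Cd74 (41.3 to 10.8 CPM) fell. In each of these, 10 cells held 41.7% to 61.3% of the UMI of a library, and within the stem gate H2-Eb1 and H2-Aa had ratios above 0 (0.95 and 2.02). H2-DMa, which loads peptides, had 68.2 CPM at P0 and 99.7 at P14 and was spread over 3974 and 3914 cells.

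**Figure D3:**
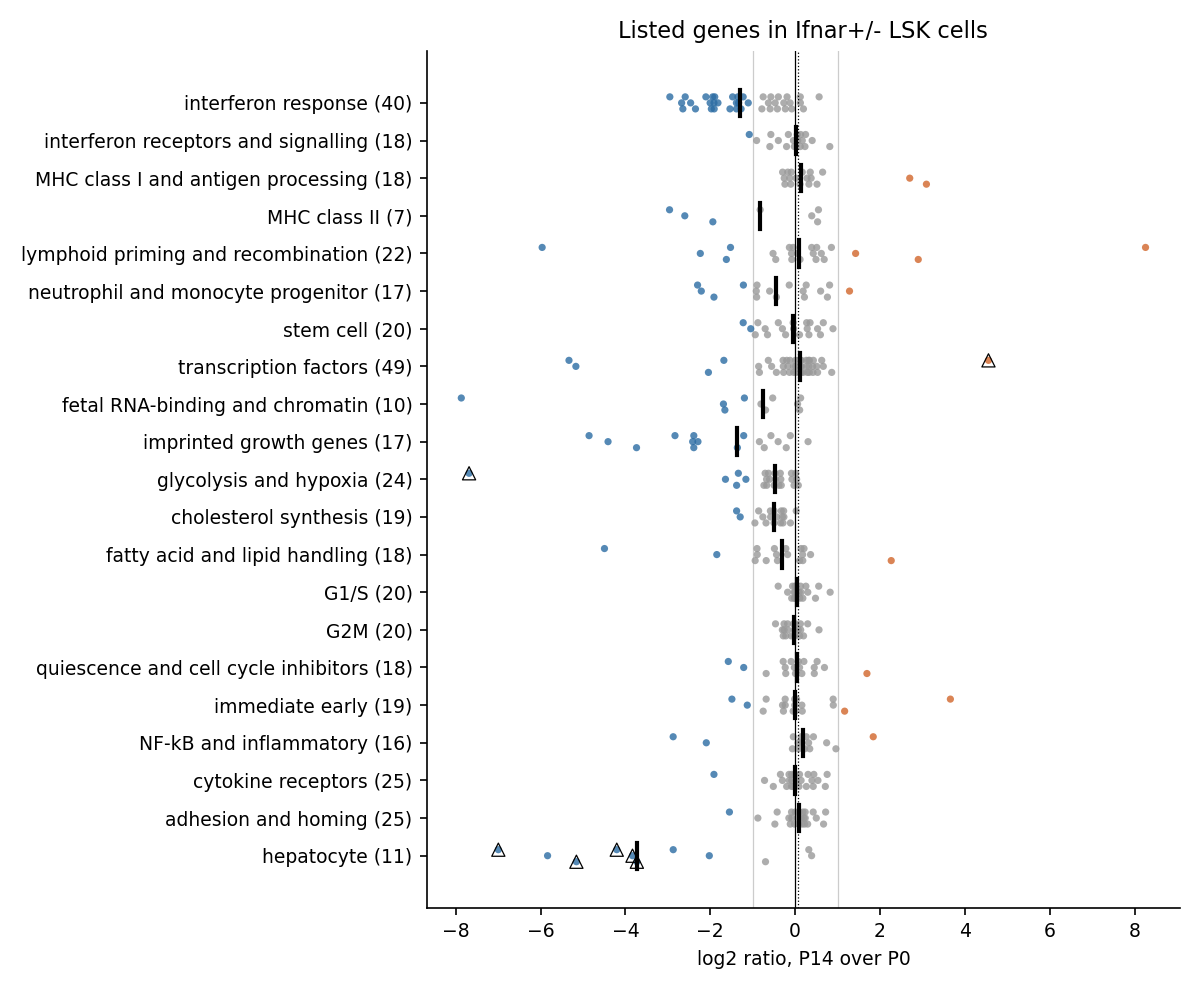
Log2 ratio of P14 over P0 for each gene of 21 lists in Ifnar+/- LSK cells, 1 point a gene, with the number of genes in brackets. Thick bars are list medians, the dotted line is the median of all genes (0.07), grey lines mark 2-fold, and triangles are genes with 0 UMI in 1 library at their bound, with which the hepatocyte median is -3.73.

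Among lymphoid genes Dntt appeared almost from 0. Of 22 lymphoid genes, 3 rose and 4 fell, with a median of 0.08. Dntt (ENSMUSG00000025014, GRCm38 chr19:41029275-41059525) had 77 UMI at P0 and 17475 at P14, or 0.434 and 134 CPM, a rise of 308-fold (log2 8.26 [7.94, 8.61]). Its rise was 8.73 in male and 8.04 in female cells, 9.09 in LSK Ifnar-/- cells and 8.76 in LK Ifnar+/- cells. Rag1, the recombinase that cuts antigen receptor genes, rose from 1.21 to 3.24 CPM, with log2 ratios of 0.16 in the stem gate and 2.52 in the Flt3 gate, and Ly6d, a surface marker of early B lineage cells, from 0.231 to 1.74 CPM in 20 and 39 cells. Flt3, the cytokine receptor of multipotent progenitors, had 125 CPM at P0 and 168 at P14. Ighm, transcribed early in lymphoid priming, had 71.5 and 93.6, and Il7r, the interleukin 7 receptor, had 10.7 and 10.1.

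Dntt separated the classes of cell at P14. After thinning to 7500 UMI it was found in 0.293% of P0 cells and 20.9% of P14 cells (0.840% and 32.4% unthinned). In the Flt3 gate the shares were 1.08% [0.437, 2.22] and 62.6% [58.0, 67.0]. In the stem gate they were 0% [0, 0.347] and 4.07% [2.87, 5.59]. In cells low for the CD48 tag and high for the CD150 tag, the surface profile of stem cells, it was found in 0% at P0 and 0.491% [0.0596, 1.76] at P14. This tag gate held 467 cells at P0 and 407 at P14 and was chosen after seeing the data. Dntt was rare in all P0 cells, so the 0% at P0 decides nothing. Median depth was 37881.5 and 31942 UMI in the Flt3 gate and 25729 and 20136 in the stem gate. Free RNA held Dntt at 0.364 CPM at P0 and 239 at P14, and its part in the stem gate share was not tested. The Flt3 gate held 12.6% of P0 cells and 10.1% of P14 cells, and the stem gate 20.7% and 19.2%.

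**Figure D4:**
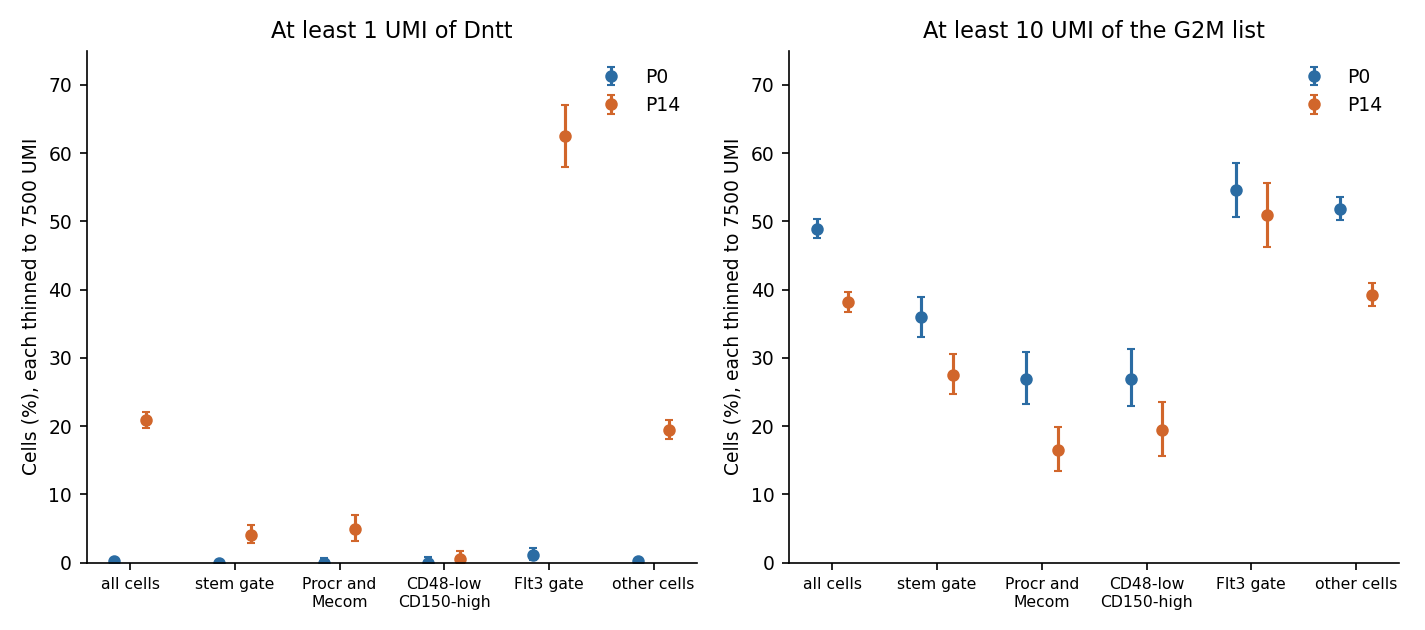
Share of cells (percent, exact 95% intervals for counting error) with at least 1 UMI of Dntt (left) and at least 10 UMI of the G2M list (right), each cell thinned to 7500 UMI, in 6 classes of Ifnar+/- LSK cells at P0 and P14. Dntt reaches 62.6% in the Flt3 gate at P14 and 0.491% in CD48-low CD150-high cells.

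Genes of committed B cells went the other way. Igll1 (5.48 to 0.0841 CPM) and Vpreb1 (8.19 to 1.74 CPM), the surrogate light chain, fell, as did the signalling chain Cd79a (5.79 to 2.01 CPM). Pax5, chosen after its value was seen, fell from 1.02 to 0.329 CPM. These RNAs sat in few cells, with 48 cells holding Igll1 at P0 and 11 at P14. Their ratios differed by class of cell, and within the Flt3 gate Cd79a had a log2 ratio of 1.21 and Pax5 of 0.46. Of 10 listed B cell markers 7 had enough UMI, of which 5 fell and 1 rose, and their summed level was 70.8 CPM at P0 and 47.7 at P14, with the defining marker Ms4a1 at 3 and 0 UMI. Vpreb3, an assembly factor of the pre-B cell receptor, fell from 8.32 to 0.658 CPM. The part of such B lineage cells in the lymphoid counts was not tested. Of 12 T and NK cell markers 5 had enough UMI and 1 fell, with a summed level of 114 and 94.9 CPM. Trbc2, a T cell receptor constant region, fell from 67.9 to 32.5 CPM, and Cd3e and Ncr1 had 0 UMI in both libraries.

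Neutrophil and monocyte progenitor genes past 2-fold were few, and more of them were lower than higher. Of 17 such genes, 4 fell and 1 rose, beside 4.18% lower and 3.67% higher over all genes. The list median was -0.44 here, -0.09 in LSK Ifnar-/- and 0.35 in LK Ifnar+/- cells. Csf1r, the receptor that marks monocyte commitment, fell from 10.4 to 2.77 CPM, Ly86 from 6.57 to 1.33 and F13a1 from 4.30 to 0.925. Ly86 had a ratio on the other side (log2 1.20) within the stem gate. The granule proteins Mpo (367 and 195 CPM, log2 -0.92) and Prtn3 (383 and 204 CPM, log2 -0.91) missed 2-fold. Csf1r had log2 ratios of -1.91 here, -0.22 in LSK Ifnar-/- and 0.04 in LK Ifnar+/- cells, and Mpo had -0.92, 0.51 and 0.31. Clec12a, a lectin of myeloid progenitors, rose from 6.25 to 15.2 CPM. Of 8 mature neutrophil markers 3 had enough UMI. The calcium-binding S100a8 (0.203 to 8.20 CPM) and S100a9 (0.220 to 7.52 CPM) rose, with 82.3% and 80.0% of their P14 UMI in 10 cells, and Ltf, a granule protein, fell from 1.43 to 0.604 CPM. The summed level of that list was 1.91 and 16.9 CPM, and the part of such cells in the myeloid counts was not tested.

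Of 20 stem cell genes 2 fell and 0 rose, near the 7.86% of all genes at least 2-fold apart, with 9 ratios above 0, 11 below and a median of -0.04. Fgd5, a guanine nucleotide exchange factor restricted to stem cells among blood cells, fell from 22.7 to 9.73 CPM, and Ifitm1, an interferon-inducible membrane gene on the list, from 992 to 480.3 CPM. Ifitm1 also fell in LSK Ifnar-/- cells (log2 -1.32) and LK Ifnar+/- cells (-1.07). Transcriptional regulators on the list lay on both sides without reaching 2-fold. Hlf had 268 CPM at P0 and 404 at P14, Meis1 120.1 and 190.2, Mecom 65.5 and 79.8, and Eya1 21.2 and 39.4. Hoxb5 (2.40 and 1.25 CPM, log2 -0.94) and Mllt3 (61.4 and 59.9 CPM), chosen after their values were seen, did not share the higher level. Procr, the endothelial protein C receptor, had 23.7 and 22.95 CPM. Endothelial markers, which stem cells share in part, had a summed level of 549 and 438 CPM, and 4 of 11 fell, among them Sox18 (8.63 to 1.97 CPM) and the defining gene Cdh5 (0.660 to 0.0765 CPM).

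Genes of the fetal programme were lower at P14. Of 12 listed, 10 had enough UMI. Of these RNA-binding and chromatin genes, 4 fell and 0 rose, with a median of -0.75. Igf2bp1, a fetal RNA-binding protein (GRCm38 chr11:95957163-96005944), had 1425 UMI in 958 cells at P0 and 4 UMI in 4 cells at P14, or 8.03 and 0.0306 CPM, 263-fold lower. Igf2bp2 (53.7 to 16.6 CPM) and Lin28b (22.95 to 7.28 CPM), the let-7 inhibitor that defines fetal blood cells, fell 3.23-fold and 3.15-fold. Arid3a (64.6 to 28.2 CPM), chosen after its value was seen, fell as well. Hmga2, a chromatin protein downstream of Lin28b, stood at 330.2 and 229 CPM (log2 -0.53), and Bcl11a, the repressor of fetal globin, at 239 and 262. Lin28b was found in 15.5% of thinned cells at P0 and 5.16% at P14 (50.9% and 16.7% unthinned), and Igf2bp1 in 6.44% and 0.0217%.

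Imprinted growth genes were lower at several loci. Of 20 listed, 19 were among the annotated genes and 17 had enough UMI. Of these 10 fell, 0 rose and 16 had a ratio below 0, with a median of -1.36 (-0.58 with 5 CPM added). On chromosome 7, the growth-limiting RNA H19 (GRCm38 chr7:142575530-142578146) went from 18.5 to 0.635 CPM and its neighbour Igf2 (chr7:142650768-142666816) from 1.48 to 0.107. On chromosome 12, Dlk1 (chr12:109452485-109463336) went from 47.2 to 2.22 CPM, 21.3-fold lower. Meg3 (chr12:109540996-109571729; 30.5 to 5.82 CPM) and Rian (4.05 to 0.566 CPM) of the same cluster, chosen after their values were seen, fell too, as did Peg3 on chromosome 7 (4.66 to 0.887 CPM), chosen likewise. H19 is made from the maternal and Igf2 and Dlk1 from the paternal copy, and genes of either kind fell. Cdkn1c, an imprinted inhibitor of the cell cycle that keeps stem cells at rest, fell from 38.7 to 16.7 CPM. In LSK Ifnar-/- cells the list had a median of -2.03 and in LK Ifnar+/- cells -1.16. Gnas, imprinted only in some tissues, had 649 and 599.8 CPM.

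Of 49 transcription factors, 4 fell and 1 rose, beside 4.18% lower and 3.67% higher over all genes, and the median was 0.10. Of the inhibitors of DNA binding, which pair with other factors and block them, Id3 went from 19.1 to 0.528 CPM (36.2-fold lower) and Id1 from 37.4 to 9.06 CPM. Id2, chosen after its value was seen, went from 26.5 to 8.28 CPM. The other factor that fell was Lef1, a factor of Wnt signalling (1.38 to 0.0306 CPM, in 35 and 3 cells). The 1 that rose was the T lineage factor Bcl11b, with 0 UMI at P0 and 52 at P14, at least 23.5-fold higher, but in 9 cells. Sox4, a factor of early lymphoid cells (489 and 492 CPM), and Lmo2, a partner of stem cell factors (442 and 462 CPM), stood nearly level.

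Glycolysis genes were lower at P14, most of them by less than 2-fold. Of 24 glycolysis and hypoxia genes, 5 fell, 0 rose and 21 lay below 0, with a median of -0.48. Gapdh had 1846 CPM at P0 and 1341 at P14, Ldha, which makes lactate, 578 and 374, and Pkm 534 and 384. The hypoxia-induced Egln3 fell from 45.2 to 14.5 CPM and the lactate exporter Slc16a3 from 8.68 to 3.33. Per 7500 UMI, the median cell held 39 UMI of the list at P0 and 28 at P14 (unthinned 168 and 96), with 39 and 27 in both the stem gate and the Flt3 gate. Ndufa4l2, a hypoxia-induced mitochondrial protein, had 837 UMI in 54 cells at P0 and 0 at P14, at least 206-fold lower. In the cholesterol pathway 2 of 19 genes fell and 18 lay below 0 (median -0.50). Fdps went from 96.3 to 37.0 CPM and Mvd from 8.21 to 3.34.

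The fatty acid handling list held 1 gene that rose, Cpt1a. Cpt1a, which brings fatty acids into mitochondria for oxidation, rose 4.80-fold from 11.1 to 53.3 CPM and from 8.51% to 32.4% of thinned cells (29.4% and 71.7% unthinned; 11.1 and 46.2 CPM in free RNA, whose part was not tested). Its log2 ratio was 2.26, with 2.14 in the stem gate, 2.38 in the Flt3 gate, 2.07 in LSK Ifnar-/- and 2.22 in LK Ifnar+/- cells. Of the 18 genes of the list, 1 rose and 2 fell, beside 3.67% higher and 4.18% lower over all genes, with a median of -0.32. The desaturase Scd1 fell from 0.772 to 0.0306 CPM, while its relative Scd2 had 218 and 114 CPM and the lipid carrier Fabp5 322 and 173. Acadm, a step of beta oxidation after Cpt1a, had 62.5 and 80.4.

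Metallothioneins, small proteins that bind zinc and copper, fell. Mt2 went from 51.9 to 0.566 CPM (91.8-fold lower) and Mt1 from 77.5 to 5.24. They sat in a minority of cells, Mt2 in 229 at P0 and 15 at P14, Mt1 in 871 and 224. Within the stem gate their log2 ratios were -4.68 and -2.28, and within the Flt3 gate Mt1 had -3.93. Mt2 was also lower at P14 in the Flt3 gate, but with few or no UMI there, so no size is given. The other 15 genes of the redox list did not reach 2-fold (list median -0.03), with Fth1 at 1568 and 1486 CPM. Most hepatocyte markers were lower as well, but not the summed level of their list. Of 12 hepatocyte markers 11 had enough UMI, and 8 of them fell (median -5.83, or -3.73 with genes at 0 set to 3 counts and -0.12 with 5 CPM added). Alb, the main protein of plasma, had 519 UMI over 428 cells at P0 and 0 at P14, at least 128-fold lower, and Ttr 145 and 0 UMI. In free RNA Alb stood at 10.2 CPM at P0 and 0 at P14. The summed level of the list was 49.6 and 51.2 CPM, in which Trf held 33.8 and 42.2 CPM and Afp 5.59 and 7.32. The part of liver RNA in the metallothionein, Apoe and hypoxia values was not tested. Apoe, a lipid carrier that liver makes in bulk, had 280.4 and 150.3 CPM.

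Cell cycle lists showed no gene past 2-fold, 0 of 20 for G1/S (median 0.05) and 0 of 20 for G2M (median -0.03). Over all genes 7.86% were at least 2-fold apart, so counts of 0 among 20 genes say nothing about these lists. Among G1/S genes the cyclin Ccne2 had 11.1 and 19.7 CPM and the helicase Hells 85.5 and 126. Mki67, a marker of cycling cells, had 287 CPM at P0 and 424 at P14, while Ube2c, active in mitosis, had 279 and 202. A smaller share of cells carried G2M RNA. At least 10 of 7500 UMI came from the list in 48.9% [47.5, 50.3] of P0 cells and 38.2% [36.8, 39.6] of P14 cells (63.9% and 53.02% unthinned). On the same thinned scale the mean cell had 17.3 UMI of the list at P0 and 16.6 at P14, the median cell 9 and 4, and the 95th percentile cell 58 and 69. The summed level, which weights cells by depth, was 2794 and 2841 CPM. As the share and the summed CPM differ in direction, no order of cycling is read from the share. In the stem gate the share was 36.0% [33.1, 39.0] and 27.6% [24.6, 30.6], with a mean of 13.7 and 12.3 UMI a cell and a median of 3 and 2. The 95th percentile there went the other way, 58 and 65.8. With 1 library a side no order of cycling is read from the stem gate. In the Flt3 gate 54.6% [50.7, 58.5] and 51.0% [46.3, 55.6] overlapped.

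Of 18 genes of quiescence and inhibitors of the cell cycle, 1 rose and 2 fell (median 0.04), beside 3.67% higher and 4.18% lower over all genes. Such small counts say nothing about the class. Cdkn2c, which blocks Cdk4 and Cdk6, rose from 1.45 to 4.70 CPM. Cdkn1a, the p53 target p21, fell from 25.6 to 8.59 CPM, with a log2 ratio of -2.33 in the stem gate and -0.50 in the Flt3 gate. Of 16 p53 targets, 3 fell and 0 rose (median -0.12), the others being Pmaip1 (1.22 to 0.283 CPM) and Plk2 (10.0 to 2.48 CPM). Plk2 had a log2 ratio of -0.20 in male and -2.83 in female cells. Ddit4 (23.04 to 6.97 CPM), a stress-induced inhibitor of mTOR, and the amino acid carrier Slc7a5 (21.03 to 7.63 CPM) fell, 2 of the 20 genes of the unfolded protein and amino acid list, where 1 rose, the cystine carrier Slc7a11 (0.186 to 0.505 CPM; median -0.03). Of 24 chromatin regulators 0 passed 2-fold (median 0.10). Dnmt3b, which sets new DNA methylation, had 124 and 91.9 CPM and Kmt2a, a methyltransferase of active genes, 113 and 151. Of 10 heat shock genes 0 passed 2-fold (median -0.29), with the mitochondrial chaperonin Hspe1 at 588 and 422 CPM. Beside 7.86% of all genes at least 2-fold apart, these counts of 0 say nothing about the chromatin or heat shock list.

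The chemokines Ccl4 and Ccl3 fell. Ccl4, a chemokine of activated cells, fell from 135 to 18.4 CPM and from 41.9% to 12.7% of thinned cells (72.5% and 28.4% unthinned), and Ccl3 from 13.1 to 3.07 CPM. The annotated spans of these genes overlap, so their reads may not be fully told apart. Ccl4 had a log2 ratio of -1.65 in male and -3.70 in female cells, and -2.87 in LSK Ifnar-/- cells. Ccl3 and Ccl4 were the 2 genes that fell among 16 of the NF-kB list, where 1 rose, the neutrophil chemokine Cxcl2 (0.372 to 1.34 CPM), and the median was 0.19. Cxcl2 stood in 17 cells at P0 and 55 at P14, and 10 cells held 89.4% and 58.3% of its UMI. Of 19 immediate early genes, 2 rose and 2 fell (median -0.01). Fosb rose 12.6-fold from 1.79 to 22.6 CPM, and from 1.27% to 12.2% of thinned cells (4.47% and 28.6% unthinned), and Zfp36, which destabilises inflammatory RNA, from 18.4 to 41.2 CPM. Nr4a1, an early nuclear receptor, fell from 11.7 to 4.15 CPM and the small Maf factor Maff from 5.79 to 2.65. Jun, a partner of Fosb, had 73.7 and 137 CPM, with log2 ratios of 0.89 here, 0.27 in LSK Ifnar-/- and 2.09 in LK Ifnar+/- cells. Fos, chosen after its values were seen, had 22.5 and 42.0 CPM, with log2 ratios of 2.13 in male and 0.24 in female cells, a difference that was not tested. In free RNA Fosb stood at 1.46 and 8.87 CPM, and the part of free RNA was not tested. Among innate receptors, 1 of 16 rose, Il18r1 (0.299 to 2.06 CPM), beside 3.67% over all genes, with a median of 0.39. The DNA sensor Cgas had 32.7 and 51.7 CPM, and its adaptor Tmem173 (STING) 40.5 and 53.1.

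Genes outside the lists that led the ratios included a neighbouring pair on chromosome 15. Galnt6, which starts O-linked sugar chains (GRCm38 chr15:100689915-100729376), rose from 2.30 to 16.2 CPM. The unnamed gene I730030J21Rik (chr15:100730505-100732737) rose from 2.31 to 19.8 CPM. Galnt6 had log2 ratios of 2.82 here, 2.50 in LSK Ifnar-/- and 1.96 in LK Ifnar+/- cells, and I730030J21Rik 3.09, 2.60 and 3.81. Reads of such close neighbours may not be fully told apart. Tcrg-C1, a gamma T cell receptor constant region, fell from 4.15 to 0.0918 CPM, and Cited4 from 5.62 to 0.138. Stfa1, Cstdc5 and Mcpt4, and Prss34 of the mast cell and basophil list, rose, with log2 ratios of 3.75 to 5.59, but stood in 25, 39, 14 and 6 cells at P14.

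Counts among receptors and adhesion genes were near the 4.18% lower and 3.67% higher over all genes. Of 25 cytokine receptors 1 fell (Csf1r) and 0 rose (median -0.01), with the interleukin 21 receptor Il21r at 53.02 and 89.4 CPM. Of 25 adhesion genes 1 fell and 0 rose (median 0.09). That gene was Jam3, a junction protein of stem cells, which went from 15.5 to 5.28 CPM, 2.93-fold lower. Cd34 had 345 and 406 CPM, Cd48 159.5 and 144, and the small glycoprotein Cd52 133 and 212.

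Mitochondrially coded genes aside, the largest CPM differences apart from Ifitm3 and Ifitm1 were in nuclear RNA, ribosomal proteins and other housekeeping genes, none of them 2-fold. Malat1, a nuclear RNA, had 4004 CPM at P0 and 7077 at P14 (log2 0.82), Gm42418 1768 and 2954, and Rps29 4329 and 6236. On the lower side Npm1, which helps assemble ribosomes, had 2899 and 2110.0 CPM and Rps2 5910.2 and 4931. Of 83 ribosomal protein genes 1 fell and 0 rose (median 0.03). Histone genes had a median of 0.71, with 21 of 73 rising and 3 falling, but their summed level was 12439 and 13188 CPM. Related histone genes share sequence and their reads may be split.

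Markers of other blood and tissue cells were mostly low. Of 12 erythroid markers 4 fell, among them the transcription factor Klf1 (7.06 to 1.89 CPM), with a summed level of 456 and 666 CPM that was mainly Car2 (341 and 575 CPM). The list median was -0.54 over all cells and 0.51 within the stem gate, where Klf1 had a log2 ratio of 0.11. Of 4 globins with enough UMI 2 fell, the near-identical Hba-a1 and Hba-a2, and the adult beta globin Hbb-bt had 822 and 418 CPM in cells and 849 and 389 in free RNA. At P0, 10 cells held 63.9% of Hba-a1 UMI and 73.9% of Hba-a2 UMI. Of 11 megakaryocyte markers 1 rose, the platelet factor Pf4 (8.96 to 20.1 CPM, but a log2 ratio of -0.17 within the Flt3 gate), with sums of 332 and 324 CPM. Of 7 mast cell and basophil markers 2 rose and 1 fell (sums of 63.3 and 91.0 CPM), and the basophil protease Mcpt8 rose (log2 3.05, in 68 and 142 cells). At P14, 10 cells held 63.3% of Mcpt8 UMI. Of 8 macrophage markers 2 rose (6.06 and 10.2 CPM), among them Cd163 (0.141 to 1.28 CPM), and of 5 dendritic cell markers 2 fell (4.84 and 3.37 CPM). Stroma markers summed to 17.4 and 15.2 CPM. The part of such cells in the values above was not tested.

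Antibody tags report surface protein. By share of all tags, 1 of 10 tags rose at least 1.5-fold (10.0%) and 3 fell (30.0%). The CD127 tag, against the interleukin 7 receptor, fell from a median of 21 to 2 tags per cell, 5.41-fold by share, while its gene Il7r had 10.7 and 10.1 CPM. The CD127 median went from 17 to 2 in the stem gate and from 38 to 5 in the Flt3 gate. In LSK Ifnar-/- cells it went from 17 to 3, and in LK Ifnar+/- cells from 11 to 3. The CD16_32 tag, against Fc gamma receptors, fell from 62 to 21 per cell (2.28-fold by share), while of its target genes Fcgr3 had 3.72 and 2.45 CPM and Fcgr2b 4.10 and 4.91. The CD41 tag fell from 14 to 6 (1.75-fold by share), with Itga2b RNA at 6.79 and 7.64 CPM. By median per cell 2 more tags, both of stem cell markers, were over 1.5-fold lower. The CD150 median was 21 at P0 and 9 at P14, with 1.10% and 1.09% of tags, and its gene Slamf1 had 4.98 and 6.24 CPM. The CD201 median was 28 and 13, with 0.693% and 0.543% of tags, and its gene is Procr. High cells stood nearly level, with a 90th percentile of 189 and 187 for CD150 and of 102 and 99.6 for CD201. The 10th percentile went from 7 to 3 for CD150 and from 8 to 3 for CD201. The part of tag background in the lower tags was not tested. The tag named SA_PE, whose target the labels do not give, rose from a median of 458 to 893, or from 8.97% to 20.1% of tags. Its median went from 489 to 1054 in the stem gate and from 403 to 508 in the Flt3 gate, from 441 to 829 in LSK Ifnar-/- and from 41 to 42 in LK Ifnar+/- cells. CD48 took 71.1% of tags at P0 and 60.9% at P14, and a share of 1 tag moves when such a large one does. CD117 (687 and 630 per cell), CD34 (206.5 and 238) and CD135 (31 and 34), tags of Kit, Cd34 and Flt3, stayed within 1.5-fold by share.

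**Figure D5:**
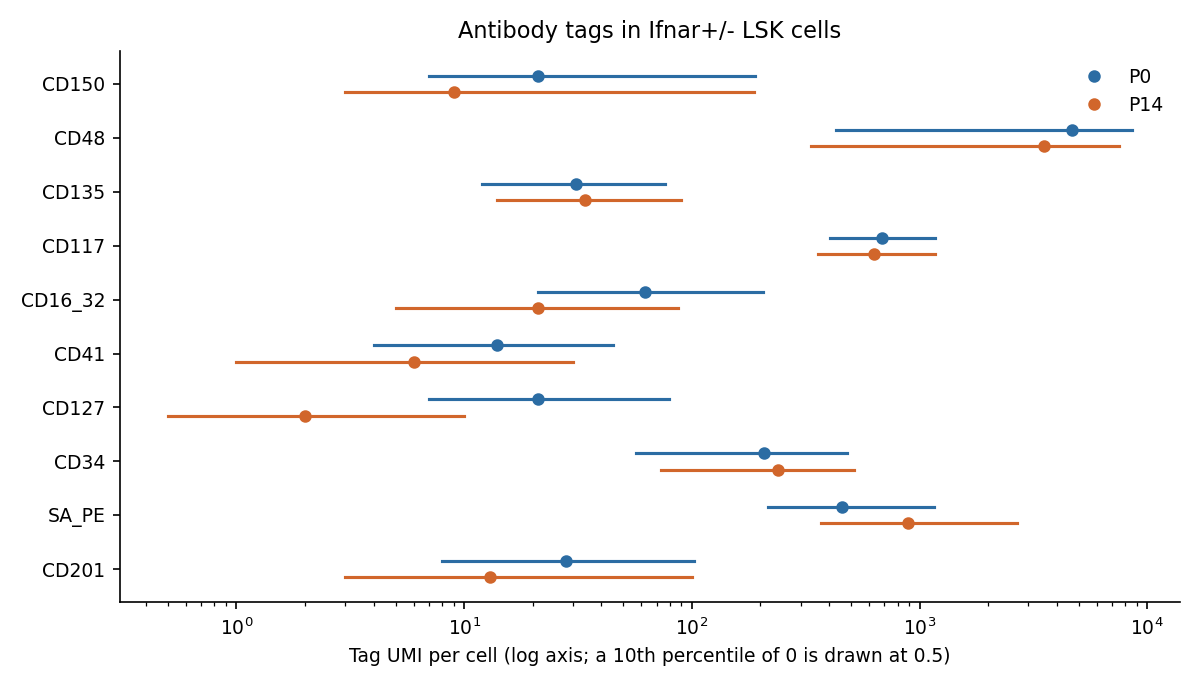
Tag UMI per cell (log axis) of the 10 antibody tags in Ifnar+/- LSK cells at P0 and P14, with points at the median and lines from the 10th to the 90th percentile of cells. The CD127 median drops from 21 to 2 and the SA_PE median is 458 at P0 and 893 at P14.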

How the data were processed

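Gene and antibody tag counts per barcode were deposited by the authors as whole-number UMI counts, made with Cell Ranger 4 per the file headers and Cell Ranger 6.0.1 with genome mm10 per the submitters' processing notes. From these, cells were kept at 7500 gene UMI and 10% mitochondrial UMI. Counts were summed per library and divided by the gene UMI of its cells (CPM). Log2 ratios had 0.5 counts added, with 95% intervals for counting error, and a gene entered with at least 50 UMI in 1 library. A count of 0 was set to a floor of 3 counts for bounds. Shares of cells were read after thinning each cell to 7500 UMI, with exact binomial intervals.

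Genes named were the 15 with the highest and 15 with the lowest ratios (by the interval end nearest 0), the 8 with the largest CPM differences each way, and per list the 4 highest in level and 3 with the highest and lowest ratios, plus sort, gate and tag genes. Not all are printed, and exceptions are said to be chosen after their values were seen. Members and lists were chosen with earlier results of these data known. The tag gate (CD48 under 1000 and CD150 at least 50 tag UMI) and 2 other alternatives were chosen after seeing the data. Coordinates are from RefSeq GRCm38.p6. Scripts were tested on simulated data. Python 3.11.15, numpy 2.4.6, scipy 1.17.1, pandas 2.3.3, scanpy 1.11.5, R 4.3.3 and edgeR 4.0.16 (TMM factors only) were used. Some listed genes are not reported here.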

Additional observations from a re-analysis of the deposited data

Results flagged for a closer look

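Some lists and genes had ratios on opposite sides of 0 in different pairs of libraries. Each pair is 1 library at each age, so these differences were not tested. In LSK Ifnar-/- cells the interferon response list had a median log2 ratio, P14 over P0, of 0.31, beside -1.30 in LSK Ifnar+/- cells. Among its genes Rtp4, a chaperone of receptors, had 1.502 beside -1.91, Ifit1, which binds viral RNA, had 1.26 beside -2.004 and Oas2, a sensor of double-stranded RNA, had 1.04 beside -2.46. MHC class II had 0.45 beside -0.82, a median that was itself 0.93 within the stem gate, T and NK cell markers 0.70 beside -0.51, and mast cell and basophil markers -1.84 beside 0.58.

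Several genes at least 2-fold apart in opposite directions sat in few cells. Stfa1 had 3.80 in LSK Ifnar+/-, -4.35 in LSK Ifnar-/- and -6.18 in LK Ifnar+/- cells. Cstdc5 had 3.75, -1.40 and -5.92, and the mast cell protease Mcpt4 had 3.76, -7.08 and -6.75. Prss34, a basophil protease, had 5.59, -8.42 and -2.06. The -8.42 of Prss34 and the -6.75 of Mcpt4 can come from no UMI at P14, so only their direction is read, not their size. The neutrophil genes S100a8 and S100a9 had 5.32 and 5.08 in LSK Ifnar+/- cells and -3.19 and -4.36 in LK Ifnar+/- cells. Mcpt4 also had -2.01 in male cells of the LSK Ifnar+/- libraries. In their female cells it was higher at P14 but absent at P0, so the ratio there has no exact size.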

How the results depend on the processing

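No paired analysis was possible because each age is 1 library. Of the 96 genes named in the text and at least 2-fold apart, 83 kept their direction and 39 stayed at least 2-fold apart in every alternative that gave a value for them. There were 17 such alternatives, but 21 of the 96 genes had values in fewer, down to 13. Scaling by TMM or by the median of ratios shifted all log2 ratios by -0.07 and -0.08. Against 1101 of 14015 genes at least 2-fold apart (515 higher, 586 lower), 108 (42 and 66) passed with 5 CPM added to each library. Adding 5 CPM also moved the medians of the interferon response (-0.68), imprinted (-0.58) and hepatocyte (-0.12) lists. A minimum of 10 UMI gave 1997 (950 and 1047) of 16474 genes, and no minimum gave 5127 (2421 and 2706) of 21324. A fold of 1.5 gave 2611 (1516 and 1095) and a fold of 4 gave 248 (57 and 191). Smaller sets of cells gave 389 lower of 12749 genes in male and 341 higher of 13049 in female cells. The stem gate gave 506 (222 and 284) of 11695 genes and the Flt3 gate 504 (195 and 309) of 10882. Cells with Procr and Mecom gave 459 (242 and 217) of 10808, and CD48-low CD150-high cells 401 (169 and 232) of 10408. For the tags, 0 were higher and 5 lower in the Flt3 gate, and 5 (CD127, CD16_32, CD41, CD150 and CD201) were lower by median per cell. Some directions turned. In the stem gate H2-Aa had 2.02, H2-Eb1 0.95, Klf1 0.11 and Ly86 1.20. In the Flt3 gate Cd79a had 1.21, Pax5 0.46, Vpreb3 0.0033, Hba-a2 0.94 and Pf4 -0.17, and Cd79a had 0.063 with gates weighted equally. In cells with Procr and Mecom, Cd74 had 0.26, H2-Aa 2.19, H2-Eb1 1.22, Klf1 0.17, Hba-a1 1.14 and the globin median 0.49. In CD48-low CD150-high cells H2-Aa had 0.95, H2-Eb1 1.17, Vpreb1 0.76 and the B cell median 0.35. Mcpt4 had -0.22 in cells with at least 15000 UMI and -2.01 in male cells. The MHC class II median was 0.93 in the stem gate, 1.01 in cells with Procr and Mecom and 1.17 in CD48-low CD150-high cells. In the stem gate the dendritic cell median was 0.50, from -0.84, and the mast cell and basophil median -0.49, from 0.58. Without genes of which 10 cells held over 50% of UMI, the mature neutrophil median was -1.24, from 1 gene, the MHC class II median 0.39 and the dendritic cell median 0.37. Gates and sexes hold fewer UMI than all cells, and fewer genes entered there. The causes of the lower counts past 2-fold were not tested. With 1 library a side, no value carries the spread between mice. Depth limits a gene absent from a library to under 0.0169 CPM at P0 and 0.0229 CPM at P14.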
